A study of Homo sapiens and Canis lupus familiaris with 27 samples.

Results

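Clade B serpins, the Kazal inhibitor gene SPINK5 and the WAP inhibitor genes SLPI and PI3 were examined in 3 prostate carcinoma cell lines exposed to PDA-66, an indolylmaleimide. The 10 genes were taken by name from the gene count tables: SERPINB1, SERPINB2, SERPINB5, SERPINB6, SERPINB7, SERPINB8, SERPINB9, SPINK5, SLPI and PI3. They were picked for the opposite large changes of SERPINB7 and SPINK5 in PC-3, so the PC-3 values of those genes are given as a description, with no test. All 10 were listed among 23708 genes in the PC-3 and LNCaP tables, and 8 among 16028 genes in the CT1258 table, which listed neither SLPI nor PI3. After a filter on low counts, 9 of the 10 could be tested for PC-3. The numbers were 4 for LNCaP and 6 for CT1258.

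PC-3 is a human line from a bone marrow metastasis and LNCaP a human line from a lymph node metastasis, and CT1258 is a canine line. All are prostate adenocarcinoma lines. Each was exposed for 12 h or 24 h to PDA-66 at 15 µM, and the control group of each line received 0.15% (v/v) DMSO, the solvent, for 24 h. Every group had 3 samples except the PC-3 DMSO-exposed controls, of which 2 were in the table. The groups exposed for 12 h and for 24 h were compared with the same controls, and no 12 h control was sequenced here, so that hours in culture and PDA-66 cannot be told apart at 12 h. Each line stands for itself only, since a line is 1 cell population.

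Serpins trap a protease through an exposed loop that the protease cuts, after which the serpin folds around it and both are inactivated. The clade B members lack a classical secretion signal and act mainly inside cells, where they guard against proteases from lysosomes, granules or neighbouring cells. SPINK5 encodes LEKTI, a secreted protein with many Kazal domains that restrains the kallikrein-related peptidases KLK5, KLK7 and KLK14 in the epidermis, and its loss causes Netherton syndrome. SLPI and PI3 (elafin) are small secreted inhibitors of neutrophil elastase that are made by many epithelia. In the prostate, SERPINB5 (maspin) is the best known of the group, as a serpin that tumours often lose and that has no established protease target.

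On GRCh37, the build of the human reads, 4 of the genes form a row on the plus strand of chromosome 18: SERPINB5 (chr18:61144191-61172318), SERPINB7 (chr18:61420169-61472610), SERPINB2 (chr18:61538926-61571122) and SERPINB8 (chr18:61637263-61687013). The row spans 543 kilobases and holds 6 other clade B serpin genes between SERPINB5 and SERPINB8. SERPINB1 (chr6:2832566-2842193), SERPINB9 (chr6:2887504-2903543) and SERPINB6 (chr6:2948393-2972399) lie on the minus strand of chromosome 6 within 140 kilobases. SPINK5 is at chr5:147405246-147516945, SLPI at chr20:43880880-43883205 and PI3 at chr20:43803543-43805185. Of the exon bases of SERPINB2, 20% are shared with another annotated gene on the same strand. For SERPINB8 that share is 6.42%, and 6.76% of the exon bases of SPINK5 lie opposite an antisense transcript. Whether reads were counted by strand is not stated in the sources used here.

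The promoters of the chromosome 18 genes are shown because SERPINB7, SERPINB2 and SERPINB5 were higher in PC-3 after 12 h of PDA-66, and that of SPINK5 because it went the other way. RefSeq windows of GRCh38.p14, from 250 bases before to 50 after each start site, held 13 start sites of 8 of the 10 genes, and each matched GRCh37 at 1 place. Capitals mark TGANTCA, the AP-1 motif, which reads the same on both strands. In SPINK5, which had no such match, capitals mark TATAAA on either strand, where 2 matches overlap. The windows are chr18:61444765-61445064 for SERPINB7 (start site 3), chr18:61554689-61554988 for SERPINB2, chr18:61143941-61144240 for SERPINB5, chr18:61637065-61637364 for SERPINB8 and chr5:147443293-147443592 for SPINK5, all on the plus strand.
SERPINB7: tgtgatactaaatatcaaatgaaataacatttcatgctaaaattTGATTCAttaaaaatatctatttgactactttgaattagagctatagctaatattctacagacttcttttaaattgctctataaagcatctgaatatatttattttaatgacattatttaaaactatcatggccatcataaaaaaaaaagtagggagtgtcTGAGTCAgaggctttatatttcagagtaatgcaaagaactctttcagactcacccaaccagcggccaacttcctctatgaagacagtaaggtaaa
SERPINB2: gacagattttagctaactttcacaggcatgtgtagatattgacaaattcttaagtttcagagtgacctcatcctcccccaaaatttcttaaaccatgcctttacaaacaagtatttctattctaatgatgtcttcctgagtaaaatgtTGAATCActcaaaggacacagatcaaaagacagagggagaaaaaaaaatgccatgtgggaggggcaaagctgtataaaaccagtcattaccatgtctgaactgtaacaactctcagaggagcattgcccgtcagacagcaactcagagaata
SERPINB5: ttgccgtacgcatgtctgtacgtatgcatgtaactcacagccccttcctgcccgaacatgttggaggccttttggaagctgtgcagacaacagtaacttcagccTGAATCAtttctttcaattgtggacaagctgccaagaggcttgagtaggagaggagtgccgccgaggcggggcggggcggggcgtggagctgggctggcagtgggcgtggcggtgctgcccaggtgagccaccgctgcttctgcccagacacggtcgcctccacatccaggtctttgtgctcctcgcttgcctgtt
SERPINB8: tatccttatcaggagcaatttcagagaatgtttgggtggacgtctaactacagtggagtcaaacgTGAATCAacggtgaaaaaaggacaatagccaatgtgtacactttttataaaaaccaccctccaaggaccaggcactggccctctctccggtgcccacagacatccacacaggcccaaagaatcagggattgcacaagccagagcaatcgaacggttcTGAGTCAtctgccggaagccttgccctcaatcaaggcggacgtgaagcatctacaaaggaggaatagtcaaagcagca
SPINK5: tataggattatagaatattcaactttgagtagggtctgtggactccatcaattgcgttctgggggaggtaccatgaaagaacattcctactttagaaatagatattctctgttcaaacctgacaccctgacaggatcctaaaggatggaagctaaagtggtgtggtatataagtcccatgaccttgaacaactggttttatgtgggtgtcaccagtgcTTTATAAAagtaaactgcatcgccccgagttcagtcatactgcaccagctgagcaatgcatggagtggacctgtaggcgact

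AP-1 is a dimer of JUN and FOS proteins and a classical regulator of stress-induced genes. TGANTCA was found in at least 1 window of each of the 4 chromosome 18 genes. These were 5 of 6 windows, all but that of SERPINB7 start site 1. The motif was in none of the 6 windows of SERPINB1, SERPINB6 and SERPINB9 and not in the SPINK5 window. Its first base lay at -206 and -45 from SERPINB7 start site 3, -102 from that of SERPINB2, -146 from that of SERPINB5, and -185 and -28 from that of SERPINB8. Among all 35116 promoter windows of the same length, 7.71% held it. The stricter TGAGTCA, a part of the same matches, was in 3 of the 13 windows, those of SERPINB7 start sites 2 and 3 and of SERPINB8, against 4.95% of all windows. Of the other motifs searched on both strands, TATAAA was in 6 of 13 windows (11.5% of all), GCGTG in 7 (36.5%), TTCNNGAA in 1 (7.74%) and TGACGTCA in 0 (1.85%). A match is a match of letters, and neighbouring windows of 1 gene can overlap. Whether AP-1 had a part in any change of these genes was not tested.

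**Figure D1:**
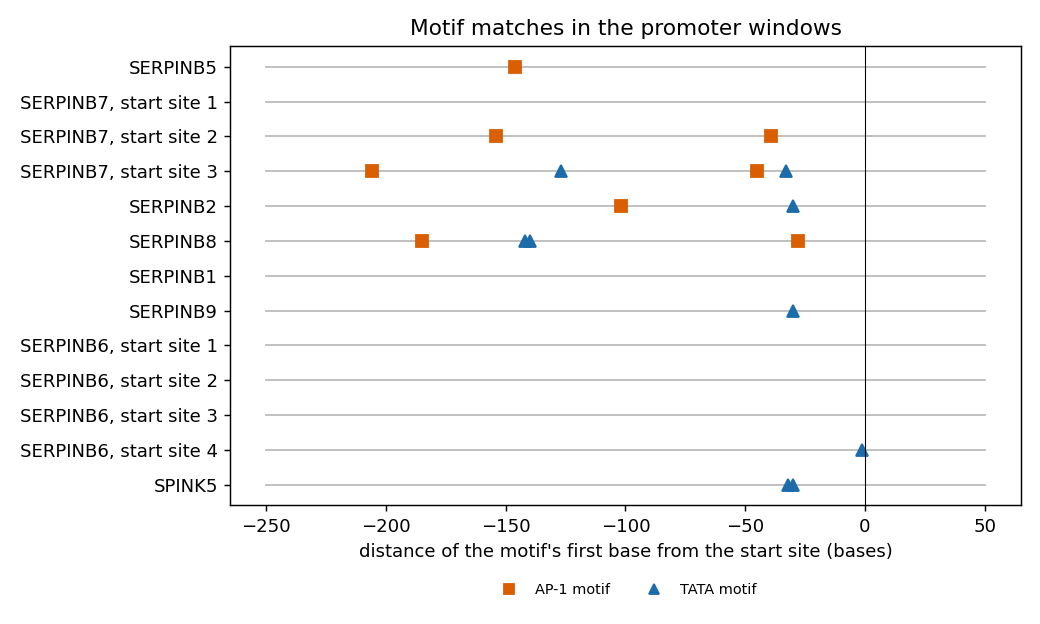
Each row is a promoter window, drawn against the distance from the start site in bases. Squares are AP-1 motif matches and triangles TATA motif matches. Squares appear only in the 5 windows of SERPINB5, SERPINB7, SERPINB2 and SERPINB8.

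Total counts were 14650839 to 18091755 per sample in PC-3 and 11923105 to 14741883 in LNCaP. In CT1258 they were 19909616 to 20976950 in the controls and 7203534 to 8325867 after PDA-66, so depth and exposure go together in that line. The LNCaP sample exposed for 12 h with replicate number 2 stood apart: across 9683 genes its log2(CPM + 1) values correlated with those of the other 12 h samples at r = 0.81 and 0.85, and those at 0.99 with each other. Other samples stood apart less. LNCaP control replicate 1 correlated at 0.959 and 0.964 with the other controls, which correlated at 0.977, and CT1258 control replicate 2 at 0.974 with both others, which correlated at 0.997. The 2 PC-3 controls correlated at 0.973. CPM values are counts scaled to library size, with TMM factors within a line. Epithelial keratin and adhesion markers (EPCAM, CDH1, KRT8, KRT18, KRT19) were all above 1 CPM in PC-3 and LNCaP controls. In CT1258 only EPCAM of these 5 was listed, with 0 counts in the controls.

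SERPINB7 (megsin), a serpin of the upper epidermis whose loss causes a palmoplantar keratosis, was low in PC-3 controls and high after PDA-66. It measured 5.33 and 5.57 CPM in the 2 controls. After 12 h it measured 86.4, 84.7 and 80.1 CPM, and after 24 h 36.0, 41.3 and 45.9 CPM. The 3 groups did not overlap, and the 12 h samples were the highest. The difference from controls was 3.94 on the log2 scale at 12 h and 2.91 at 24 h, ranks 23 and 30 from the top of 13777 genes tested. From 12 h to 24 h the difference was -1.03.

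SPINK5 showed the reverse order in PC-3. Its controls measured 129 and 182 CPM, the 12 h samples 6.45, 5.61 and 5.09 CPM, and the 24 h samples 14.6, 13.1 and 15.4 CPM. The groups did not overlap here either, and the 12 h samples were the lowest. The log2 difference was -4.76 at 12 h and -3.43 at 24 h, ranks 13 and 22 from the bottom, and 1.32 from 12 h to 24 h. The controls differed from each other, and the 12 h value was -4.98 without control replicate 2 and -4.48 without control replicate 3. As with every value from bulk RNA, fewer cells of a type and less RNA per cell cannot be told apart.

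**Figure D2:**
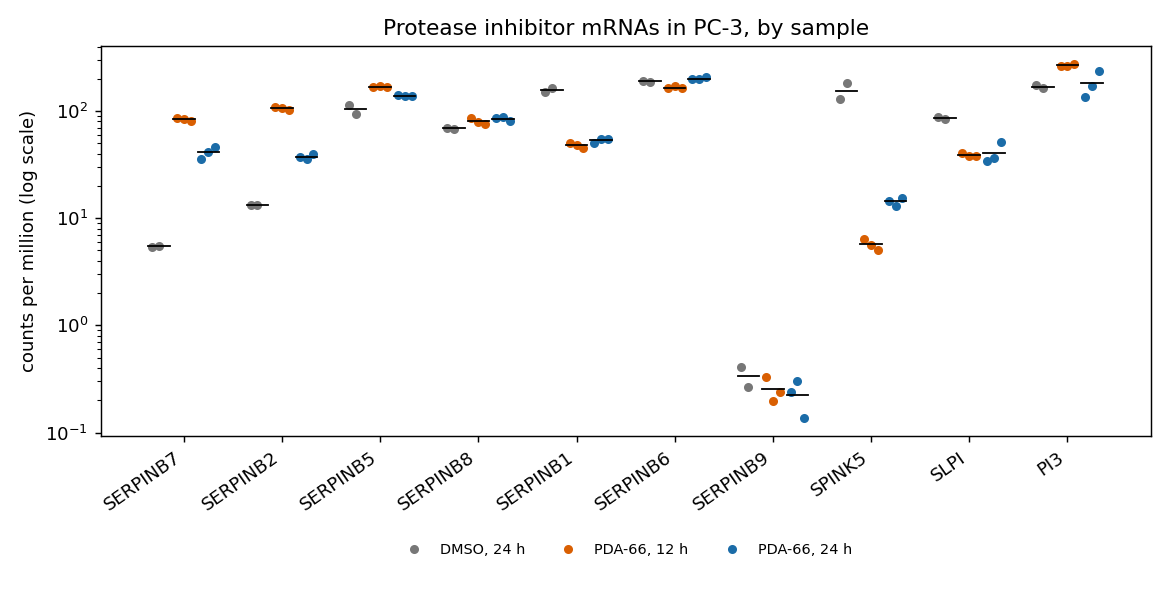
CPM of the 10 genes in each PC-3 sample, on a log axis, by gene. Grey points are the 2 DMSO-exposed controls, orange points 12 h and blue points 24 h of PDA-66, and black bars are group means. SERPINB7 and SERPINB2 lie far above their controls after 12 h, SPINK5 far below, and SERPINB9 stays under 1 CPM throughout.

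The genes with the profile most like that of SERPINB7 over the 8 PC-3 samples were TNFAIP3 (Pearson r = 0.998), LRRC38 (r = 0.997) and HSPH1 (r = 0.997), among 9855 other genes averaging at least 10 CPM. TNFAIP3, an inhibitor of NF-kappa-B signalling, averaged 2.96, 34.1 and 17.0 CPM in controls, at 12 h and at 24 h. For SPINK5 they were CAT, FAM162A and KLC4 (r = 0.999, 0.998 and 0.998). CAT, which encodes catalase, averaged 199, 105 and 123 CPM in the same order. Likeness of this degree was common, since 565 genes correlated with SERPINB7 above 0.95 and 606 with SPINK5, over samples that share 3 groups and their libraries.

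Of the 7 other genes tested in PC-3, 4 passed an adjusted p of 0.001 at 12 h (edgeR quasi-likelihood test, Benjamini-Hochberg over all genes tested). SERPINB2 and SERPINB5 rose, and SERPINB1 and SLPI fell. Of all genes tested, 27.6% passed in this comparison, 13% as higher and 14.6% as lower. At 24 h SERPINB2 again rose and SERPINB1 and SLPI again fell, 3 of 7 against 19.3% of all genes (8.88% higher, 10.5% lower). The median log2 fold change of the 7 was 0.22 at 12 h, against -0.01 over all genes. All 7 had no overlap between controls and 12 h samples, as had 70.9% of all genes.

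SERPINB2 (PAI-2), an inhibitor of the plasminogen activator urokinase, showed the largest rise of the 7. Its PC-3 controls both measured 13.3 CPM, the 12 h samples 109, 106 and 103 CPM, and the 24 h samples 37.0, 35.7 and 39.4 CPM. The log2 fold change was 2.99 ± 0.11 (SE, adjusted p = 7.42e-10, edgeR) at 12 h and 1.49 ± 0.11 (adjusted p = 3.82e-07, edgeR) at 24 h. The difference of -1.50 ± 0.09 from 12 h to 24 h also passed (adjusted p = 6.57e-07, edgeR). SERPINB2 was the only one of the 7 to pass that comparison, in which 1.41% of all genes passed, 0.631% as lower. SERPINB7, its neighbour on chromosome 18, had the same order of groups, DMSO lowest and 12 h highest.

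SERPINB5 measured 115 and 93.7 CPM in PC-3 controls, 167, 169.7 and 169 CPM after 12 h, and 140.0, 137 and 138 CPM after 24 h. All 6 exposed samples lay above both controls. The rise of 0.70 ± 0.10 at 12 h passed (adjusted p = 7.02e-05, edgeR), whereas 0.41 ± 0.10 at 24 h did not (adjusted p = 0.00433, edgeR). Without control replicate 2, the higher of the pair, the 24 h value was 0.57 and passed (adjusted p = 0.000144, edgeR), and with DESeq2 on all samples it passed (adjusted p = 0.000769). SERPINB8, which inhibits the proprotein convertase furin, measured 69.2 and 68.6 CPM in controls and 75.4 to 87.7 CPM in the exposed samples. Its log2 fold changes of 0.22 (95% interval 0.01 to 0.43) at 12 h and 0.30 (0.09 to 0.51) at 24 h did not pass.

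On chromosome 6, SERPINB1, an inhibitor of neutrophil elastase, cathepsin G and proteinase 3, measured 152 and 165 CPM in PC-3 controls. The 12 h samples had 50.5, 47.9 and 44.8 CPM and the 24 h samples 50.6, 55.3 and 54.9 CPM. The fall was -1.73 ± 0.10 at 12 h (adjusted p = 1.55e-08, edgeR) and -1.56 ± 0.10 at 24 h (adjusted p = 1.06e-07, edgeR). From 12 h to 24 h it differed by 0.17 (95% interval -0.03 to 0.36), which did not pass.

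SERPINB6, which inhibits cathepsin G, measured 192 and 187 CPM in PC-3 controls, 163 to 171 CPM after 12 h and 197 to 206 CPM after 24 h. Its log2 fold changes of -0.19 (95% interval -0.38 to -0.01) and 0.08 (-0.11 to 0.27) did not pass. SERPINB9, the inhibitor of granzyme B, had 2 to 6 counts in each of the 8 PC-3 samples, 0.14 to 0.41 CPM, and was too low to be tested.

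The WAP inhibitors gave unlike values. SLPI measured 89.0 and 84.1 CPM in PC-3 controls, 40.3, 38.1 and 37.8 CPM after 12 h, and 34.1, 36.2 and 52.0 CPM after 24 h. It fell at 12 h, with a log2 fold change of -1.16 ± 0.15 (adjusted p = 2.29e-05, edgeR), and at 24 h, with -1.09 ± 0.15 (adjusted p = 6.05e-05, edgeR). PI3 measured 175 and 164 CPM in controls, 265, 266 and 277 CPM after 12 h, and 136, 171 and 237 CPM after 24 h. All 12 h samples were above the controls, and the 24 h samples lay on both sides of them. The log2 difference of 0.67 ± 0.17 at 12 h had an adjusted p of 0.00435 and missed the threshold in the main edgeR fit. It passed with DESeq2 (adjusted p = 0.000239). With edgeR it passed without the filter (adjusted p = 0.000894) and with only the 2 groups compared (adjusted p = 0.000409). It also passed with edgeR without 24 h replicate 1 or 3 (adjusted p = 0.000928 and 0.000362). The 24 h value was 0.10 (95% interval -0.26 to 0.46).

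Per kilobase of transcript, PI3 had the highest level of the 10 in PC-3 controls, 297 and 317 CPM per kilobase. SLPI (141 and 149) and SERPINB6 (142 and 146) came next and did not differ beyond their spread. SERPINB1 (61.3 and 66.5) followed, then SPINK5 (35.3 and 49.9) and SERPINB5 (36.3 and 44.3), whose ranges overlapped. SERPINB8 (20.7 and 20.8), SERPINB2 (6.98 and 7.00), SERPINB7 (2.43 and 2.54) and SERPINB9 (0.06 and 0.10) closed the order. After 12 h, SERPINB2 (53.8 to 57.0) and SERPINB7 (36.5 to 39.4) lay between SLPI and SERPINB8, and SPINK5 (1.40 to 1.77) was above only SERPINB9. Lengths are those of the MANE Select transcripts, which need not be the transcripts these cells make.

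In LNCaP, 0 of the 4 genes tested passed in any of the 3 comparisons with edgeR, and 0 with DESeq2. At an unadjusted p under 0.05, 1 passed at 12 h, 0 at 24 h and 1 between 24 h and 12 h. Of all 13156 genes tested, 0.0076% passed an adjusted p of 0.001 at 12 h, 0% at 24 h and 0% between the times, and 30%, 19.8% and 6.36% had an unadjusted p under 0.05. The study reported more LNCaP genes past the same threshold at both times. The fit here includes 12 h replicate 2, and its biological coefficient of variation was 0.24, against 0.097 in PC-3 and 0.10 in CT1258. A lack of calls in LNCaP therefore does not show a lack of change. SLPI gave both of the unadjusted passes. It measured 16.6, 8.89 and 10.0 CPM in controls, 17.0, 128 and 23.0 CPM at 12 h and 7.52, 8.49 and 7.66 CPM at 24 h. The 12 h samples lay above the controls, 1 of them far above. The log2 difference was 2.24 (95% interval 0.73 to 3.75, adjusted p = 0.0672, edgeR), and 0.75 (adjusted p = 0.0373, edgeR) without that sample, replicate 2, which also stands apart across genes.

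The same LNCaP sample had 282 CPM of SERPINB6, against 111 and 107 CPM in the others at 12 h, 129 to 138 CPM in controls and 113 to 117 CPM at 24 h. SERPINB6 differed by 0.31 at 12 h with it and by -0.30 without it. SERPINB5 measured 27.9, 10.9 and 12.7 CPM in LNCaP controls, 14.2, 6.34 and 15.1 CPM at 12 h and 15.4, 17.1 and 16.9 CPM at 24 h. The controls overlapped both exposed groups, which did not overlap each other. SERPINB8 was at 1.98 to 4.40 CPM in controls and 2.17 to 3.08 CPM after PDA-66. Intervals were wide: SERPINB5 differed by -0.53 (-1.41 to 0.35) at 12 h and SERPINB8 by -0.41 (-1.10 to 0.27). Without control replicate 1, the highest of the LNCaP samples in SERPINB5, the SERPINB5 value was 0.018.

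The other genes were at or near 0 in LNCaP. SERPINB7 and SERPINB2 had 0 counts in all 9 samples, which allows up to 0.0762 CPM in the controls, 0.0706 at 12 h and 0.0712 at 24 h, taking 3 counts over a group as the limit. PI3 had at most 2 counts in any sample, SERPINB1 at most 1 in any sample and SERPINB9 at most 1. SPINK5 had 14, 6 and 2 counts in controls (0.99, 0.49 and 0.15 CPM), 1, 1 and 2 at 12 h (0.07, 0.08 and 0.14 CPM), and 5, 6 and 5 at 24 h (0.34, 0.45 and 0.38 CPM). The 12 h samples were the lowest, as in PC-3, but the counts were too few to be tested. Such limits cover counting error only.

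In canine CT1258, SERPINB2 and SERPINB5 rose and SERPINB6 and SERPINB8 fell at 12 h, 4 of 6 genes tested, against 44.3% of all genes (22.2% higher, 22.1% lower). At 24 h SERPINB2 rose and SERPINB6 fell, 2 of 6 against 33.8% (16.6% higher, 17.2% lower). Only the exposed samples brought SERPINB2 past the low-count filter in this line. Its place in these and later counts that involve CT1258 is therefore no support. Between 24 h and 12 h, 0 of 6 passed with edgeR and 0 with DESeq2, 1 had an unadjusted p under 0.05, and of all genes 2.13% and 32.5% met the respective criterion.

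SERPINB2 measured 1.44, 0.95 and 1.19 CPM in CT1258 controls, 9.99, 8.15 and 6.82 CPM after 12 h and 5.52, 8.0 and 6.10 CPM after 24 h. These are 19 to 29 counts per control and 45 to 75 per exposed sample. No exposed sample overlapped the controls. The log2 difference was 2.79 ± 0.23 at 12 h and 2.44 ± 0.24 at 24 h. Too few controls reached the low-count filter, and the gene passed it only through the exposed samples. These values are therefore given as a description, with no test. With the controls thinned once at random to the depth of the exposed samples the values were 2.44 and 2.09. The thinning was not repeated, so the part of the draw itself in this shift is not known. SERPINB5 measured 2.78, 3.88 and 2.98 CPM in controls, 5.46, 6.96 and 7.48 CPM at 12 h and 6.14, 4.33 and 5.02 CPM at 24 h. Its rise of 1.04 ± 0.20 at 12 h passed (adjusted p = 0.000365, edgeR), and 0.69 ± 0.21 at 24 h did not (adjusted p = 0.0111, edgeR). The 12 h call was lost when only these groups were fitted (adjusted p = 0.00129) and without either control replicate 1 or 3 or exposed replicate 2 or 3, with adjusted p-values of 0.00142 to 0.00328.

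SERPINB6 measured 1116, 1588 and 1124 CPM in CT1258 controls, 664 to 746 CPM at 12 h and 720.1 to 771 CPM at 24 h. Control replicate 2 was the highest, and all exposed samples lay below the controls. The fall was -0.87 ± 0.12 at 12 h (adjusted p = 2.33e-05, edgeR) and -0.77 ± 0.12 at 24 h (adjusted p = 0.000103, edgeR). The 24 h call was lost without exposed replicate 3 (-0.74, adjusted p = 0.00108). SERPINB8 measured 30.7, 41.3 and 32.8 CPM in controls, 19.2 to 22.5 CPM at 12 h and 23.6 to 25.4 CPM at 24 h. It fell by 0.76 ± 0.12 at 12 h (adjusted p = 9.44e-05, edgeR), a call that was lost without 12 h replicate 1 (adjusted p = 0.00109). The 24 h value of -0.51 ± 0.12 did not pass (adjusted p = 0.00244, edgeR) unless control replicate 2 was left out (-0.38, adjusted p = 0.000976).

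SERPINB1 measured 169.6 to 194 CPM in CT1258 controls, 154 to 166 CPM at 12 h and 135 to 143 CPM at 24 h. The values of -0.19 (95% interval -0.36 to -0.02) and -0.36 (-0.53 to -0.19) did not pass, although the 24 h value did with DESeq2 (adjusted p = 0.000222) and without control replicate 2 (-0.31, adjusted p = 0.000209, edgeR). SERPINB9 was at 3.58 to 5.06 CPM in controls, and its values of 0.56 (0.16 to 0.97) and 0.38 (-0.03 to 0.79) did not pass. SERPINB7 had 0 counts in all 9 samples, which allows up to 0.0497 CPM in the controls, 0.129 at 12 h and 0.13 at 24 h. SPINK5 had 0 or 1 count per control and 0 to 7 after PDA-66, and was not tested.

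**Figure D3:**
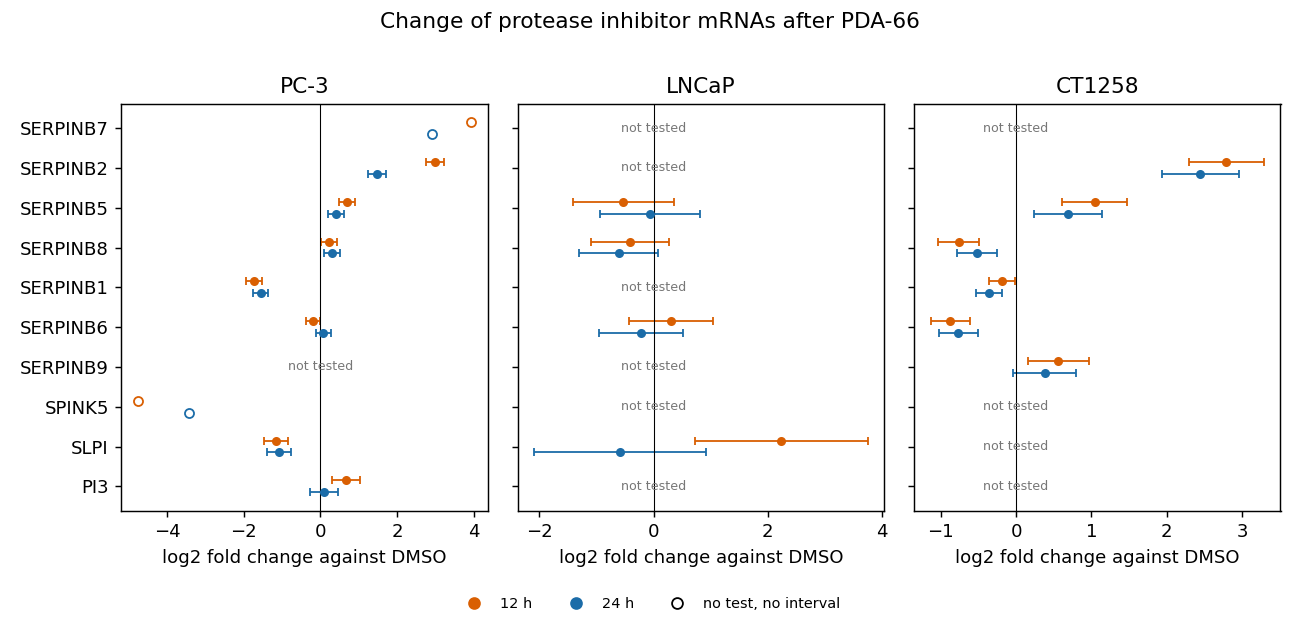
Log2 fold change against DMSO for each gene in PC-3, LNCaP and CT1258, with 95% intervals from the edgeR fit. Orange is 12 h and blue 24 h, and open circles are the PC-3 values of SERPINB7 and SPINK5, which carry no test. The x axes differ between panels. SERPINB2 lies at 2.99 in PC-3 and 2.79 in CT1258 at 12 h, and the LNCaP intervals are the widest of the 3 panels. The CT1258 values of SERPINB2, though drawn with intervals, are a description with no test.

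Whether a response differed between lines was tested as the difference of the log2 fold changes, at an adjusted p of 0.05, for genes tested in both lines. Between PC-3 and CT1258, SERPINB2 differed by 0.14 at 12 h and by -1.0 at 24 h, where the rise was smaller in PC-3. The gene passed the CT1258 filter only through the exposed samples, so these differences are given as a description, with no test. With the CT1258 controls thinned once at random, the 24 h difference was -0.66. SERPINB1 was lowered more in PC-3, with differences of -1.60 at 12 h (adjusted p = 1.07e-09, edgeR) and -1.24 at 24 h (adjusted p = 1.04e-07, edgeR). SERPINB6 and SERPINB8 fell in CT1258 at 12 h, whereas their PC-3 values of -0.19 and 0.22 did not pass, and the differences were 0.63 (adjusted p = 0.00234) and 0.93 (adjusted p = 5.43e-05) by edgeR. SERPINB5 differed by -0.40 (-0.81 to 0.01) at 12 h and passed only without PC-3 control replicate 3 or CT1258 control replicate 2 (adjusted p = 0.0433 and 0.0232). In all, 3 of 5 genes passed at 12 h, against 47.1% of all genes, and 4 of 5 at 24 h, against 39.3%. SERPINB2 is among those counted at 24 h, and its place in that count is no support.

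Between PC-3 and LNCaP, SLPI differed by -3.33 at 12 h (95% interval -4.92 to -1.74, adjusted p = 0.00836, edgeR), with a fall in PC-3 and a positive value in LNCaP. Without LNCaP 12 h replicate 2 the difference was -1.86 (adjusted p = 0.000139). SLPI was the only one of 4 genes to pass, against 13.7% of all genes, and at 24 h 0 of 4 passed with edgeR and 1 with DESeq2, against 5.99% of all genes. At an unadjusted p under 0.05, 1 of 4 passed at 24 h, against 20.2% of all genes. SERPINB5 differed by 1.27 (0.31 to 2.23, adjusted p = 0.0713, edgeR) at 12 h and passed without that same LNCaP sample (0.97, adjusted p = 0.0401), as also without LNCaP control replicate 2 or 12 h replicate 1 or 3 (adjusted p = 0.0395 to 0.0432). With DESeq2 on all samples it passed too. Without LNCaP control replicate 1 it was 0.73 and did not pass. Without LNCaP control replicate 1, SERPINB8 passed at 12 h (0.97, adjusted p = 0.00852) and at 24 h (1.23, adjusted p = 0.00358). Without LNCaP 12 h replicate 2, SERPINB6 (0.34, adjusted p = 0.0410) and SERPINB8 (0.94, adjusted p = 0.0197) passed at 24 h.

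Between LNCaP and CT1258 at 12 h, SERPINB5 (-1.63, adjusted p = 0.0148, edgeR) and SERPINB6 (1.10, adjusted p = 0.0229, edgeR) passed, 2 of 3 against 37.7% of all genes. The SERPINB6 call was lost without LNCaP control replicate 2, CT1258 control replicate 2 or CT1258 12 h replicate 1 (adjusted p = 0.0514 to 0.0687). Without LNCaP 12 h replicate 2 the SERPINB6 difference was 0.51 (adjusted p = 0.0161), and without LNCaP control replicate 1 the SERPINB5 difference was -1.09. At 24 h 0 of 3 passed with edgeR and 0 with DESeq2, and 0 had an unadjusted p under 0.05, against 16.6% and 31.1% of all genes. Without LNCaP 12 h replicate 2, SERPINB6 passed at 24 h (0.48, adjusted p = 0.0174).

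**Figure D4:**
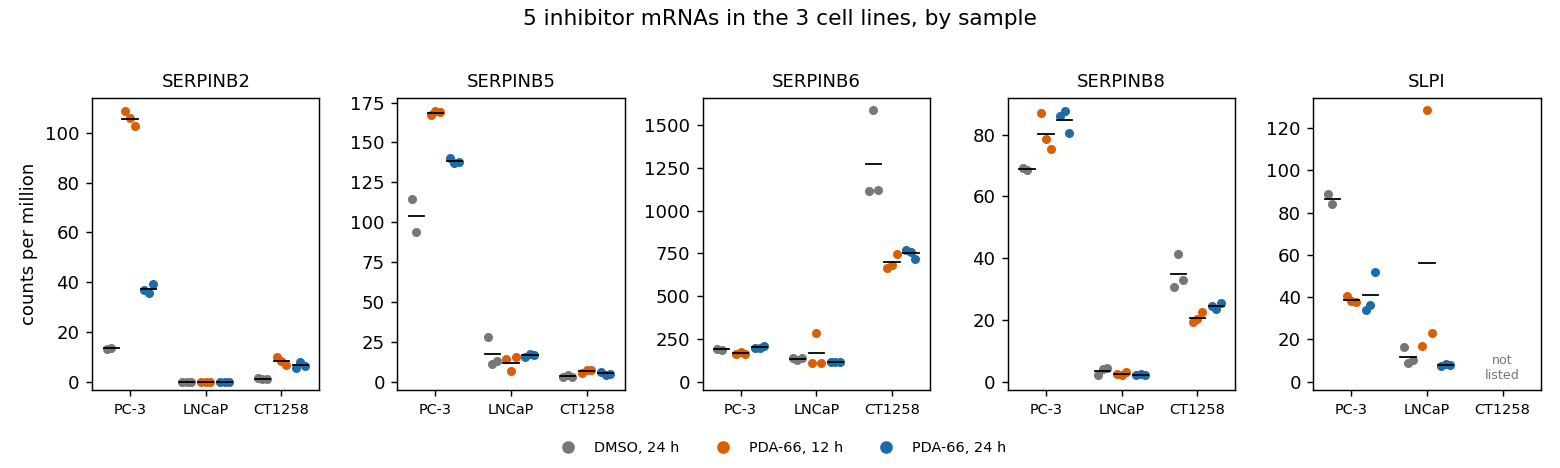
CPM of 5 genes in every sample of the 3 lines, on linear axes that differ by gene. Grey is DMSO, orange 12 h and blue 24 h of PDA-66, and bars are group means. SERPINB2 is raised in PC-3 and CT1258 and at 0 in LNCaP, and the LNCaP 12 h sample at 128 CPM stands alone for SLPI.

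In controls, most of these genes were higher in PC-3 than in LNCaP, a comparison in which line and library batch cannot be told apart. Of 4 genes tested in both lines, 3 passed an adjusted p of 0.001, against 40.8% of all genes. SERPINB8 was higher by 4.34 ± 0.23 (adjusted p = 4.74e-11, edgeR), SLPI by 2.89 ± 0.57 (adjusted p = 0.000285, edgeR) and SERPINB5 by 2.62 ± 0.33 (adjusted p = 2.86e-06, edgeR). The SLPI call was lost without any of PC-3 control replicates 2 and 3 and LNCaP control replicates 2 and 3 (adjusted p = 0.00195 to 0.00248). SERPINB6 was nearest to equal, at 0.52 (95% interval -0.06 to 1.10). It passed without LNCaP 12 h replicate 2 (adjusted p = 1.88e-05).

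For genes with no LNCaP control count, the bound against 3 counts over the group was at least 2256-fold higher in PC-3 for PI3 and at least 178-fold for SERPINB2. For SERPINB7, chosen on PC-3, the value was 72.7-fold, given as a description. These values rest on pooled counts and leave out the spread between samples. SERPINB1 had 4705 counts in PC-3 controls and 2 in LNCaP controls, a ratio of 3167 (95% exact counting interval 876 to 26160.3). SPINK5, chosen on PC-3, had 4623 and 22 counts, a ratio of 283 given as a description.

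Other genes of the same pathways were taken from fixed lists. The 6 other clade B serpin genes, all between SERPINB5 and SERPINB8 on chromosome 18, were listed and too low to be tested in PC-3 and LNCaP, and the CT1258 table listed 2 of them, also too low. Together they summed to 0.87 to 1.35 CPM in PC-3 controls and 0.55 to 0.91 CPM at 12 h, and to 0 in all LNCaP samples. Of 22 other Kazal and WAP inhibitor genes, 6 were tested in PC-3, and 1 rose and 2 fell at 12 h, against 13% and 14.6% of all genes. The 1 that rose, SPINK6, was at 0 to 0.068 CPM in controls, 3.26 to 3.72 CPM at 12 h and 0.83 to 1.04 CPM at 24 h. It entered the test only through the exposed samples, so its values are given as a description and its place in the count is no support. WFDC3 fell from 23.6 ± 8.6 to 3.59 ± 0.50 CPM (-2.71, adjusted p = 1.32e-06, edgeR). The other that fell, WFDC10B, averaged 2.92 CPM in controls and 0.18 CPM at 12 h. It was near 0 in the exposed samples and is likewise given as a description.

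In the plasminogen activation list, which includes SERPINB2, 6 of 9 genes tested in PC-3 rose and 1 fell at 12 h, and 4 rose and 1 fell at 24 h. Of all genes, 13% rose and 14.6% fell at 12 h, and 8.88% and 10.5% at 24 h. The activators themselves were among those that rose at 12 h, PLAU by 0.79 (adjusted p = 2.07e-05, edgeR) and PLAT by 0.86 (adjusted p = 4.72e-05, edgeR). SERPINE2 (protease nexin-1), an inhibitor of both, fell by 0.65 (adjusted p = 0.00011, edgeR). The list's median log2 fold change was 0.79, against -0.01 for all genes. In CT1258, 2 of 4 genes tested rose at 12 h (SERPINB2 and PLGRKT, 1.27) and SERPINE2 fell by 0.61, against 22.2% higher and 22.1% lower of all genes. SERPINB2 entered the CT1258 test only through the exposed samples, so its place in that count is no support. In LNCaP 0 of 3 passed.

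Of 23 other extracellular protease inhibitors, 16 were tested in PC-3, and 2 rose and 5 fell at 12 h, against 13% and 14.6% of all genes. TFPI2 rose by 2.77 (adjusted p = 2.20e-09, edgeR), and TFPI, the inhibitor of tissue factor, fell by 1.46 (adjusted p = 4.30e-07, edgeR). SERPIND1, heparin cofactor II, fell by 0.91 (adjusted p = 6.72e-06, edgeR). In CT1258 1 of 6 fell at 12 h, against 22.1% of all genes, and 3 of 6 at 24 h, against 17.2%, among them SERPINF1 by 0.90 (adjusted p = 0.000971, edgeR). In LNCaP 0 of 10 passed.

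Of 23 proteases that the 10 inhibitors act on, 21 were listed in each human table and 7 in the CT1258 table. In PC-3 5 were tested, and at 12 h PLAU and PLAT rose, 2 of 5 against 13% of all genes, and the other 3 did not pass. In LNCaP 2 were tested and in CT1258 1, FURIN. FURIN, the target of SERPINB8, fell in CT1258 at 24 h by 0.59 (adjusted p = 4.77e-05, edgeR), where 17.2% of all genes fell. The targets of LEKTI, named for their role with their values known, were near 0 in PC-3: KLK5 at 0 to 0.07 CPM in controls and 0.18 to 0.52 CPM at 12 h, KLK7 at no more than 0.07 CPM and KLK14 at 0.40 to 0.41 CPM in controls and 0.20 to 0.24 CPM at 12 h. ELANE, the elastase of neutrophils, had at most 0.07 CPM. Of 10 other kallikreins 0 were tested in PC-3. In LNCaP 4 were, and 0 passed. In CT1258, KLK2 was at 5.91 ± 4.25 CPM (SD, n = 3) in controls and at 0 counts in the 6 exposed samples.

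Markers of cells in which these inhibitors are otherwise abundant were looked up beside the results. Of 12 markers of squamous epithelium, 4 had 0 counts in every PC-3 sample, and the sum of the list was 49.6 to 56.9 CPM in controls and 48.0 to 49.8 CPM at 12 h and 40.5 to 44.7 CPM at 24 h, mostly KRT10. IVL, a defining marker, had 0 counts in controls and at 12 h. FLG (filaggrin), another, averaged 1.99 CPM in controls, 5.92 CPM at 12 h and 6.84 CPM at 24 h, and its rise of 1.78 at 24 h passed (adjusted p = 0.000522, edgeR). SERPINB7 was higher in the same samples, and the part of these markers in that was not tested. Of 7 leukocyte markers, LYZ alone exceeded 1 CPM in PC-3 controls, and the list summed to 13.7 to 20.4 CPM in controls and 2.28 to 2.65 CPM at 12 h. PTPRC, which marks nearly all leukocytes, was at 0.07 to 0.34 CPM in controls, 0.13 to 0.83 CPM at 12 h and 0.41 to 1.13 CPM at 24 h. LYZ averaged 16.2 CPM in controls, most of the sum there, 1.54 CPM at 12 h and 1.95 CPM at 24 h. At 24 h the list summed to 2.37 to 3.32 CPM. SERPINB1 and SLPI fell in the same samples, and the part of these markers in that was not tested. Of the 5 epithelial markers, 2 fell at 12 h (CDH1 and KRT18), against 14.6% of all genes, and 3 at 24 h, against 10.5%, in PC-3, and their part was not tested either.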

How the data were processed

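RNA-seq of 27 samples was available as 3 count tables. The counts are reads per gene, not normalized, as deposited by the authors, who mapped human reads to hg19 with STAR 2.3.1s in Illumina RNA Express 1.0.0 and canine reads to CanFam3.1 with BWA, per the study's methods. Libraries were poly(A)-selected and single reads were 75 bases. The study left out 1 PC-3 control as an outlier, which is not analysed here. A column whose name carries stray semicolons in the PC-3 table was read by its name, and 2 PC-3 12 h columns were assigned to their group only.

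The members and lists were chosen with earlier results of these data known. Each line was fitted with its 3 groups in edgeR 4.0.16 (R 4.3.3; filterByExpr, TMM, quasi-likelihood test) and p-values were adjusted over all genes tested, with a threshold of 0.001, or 0.05 for differences between lines. The procedure was tested on simulated data. CPM values, computed here, use TMM-scaled totals of the genes that passed the filter. SE is the log2 fold change over the root of F. Alternatives were DESeq2 1.42.0, other scalings, filters and thresholds, CT1258 controls thinned in a single random draw and leaving out each sample. All members were named, and from each list up to 2 genes per direction with the largest change among those past the threshold whose groups did not overlap. The study describes the replicates as biological. Same-numbered samples did not deviate together (r from -0.55 to 0.42), so numbers were not used as pairs. Positions are GRCh37, with GENCODE v44lift37 annotation. Some genes of the lists are counted but not reported singly here.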

Additional observations from a re-analysis of the deposited data

Results flagged for a closer look

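Responses to PDA-66 that differed between lines by an edgeR test of the difference are gathered here, as PC-3 minus the other line or LNCaP minus CT1258, on the log2 scale. Between PC-3 and LNCaP at 12 h the difference of SLPI was -3.33, and -1.86 without LNCaP 12 h replicate 2. Between PC-3 and CT1258 at 12 h the differences were -1.60 for SERPINB1, 0.63 for SERPINB6 and 0.93 for SERPINB8. At 24 h they were -1.24 for SERPINB1, 0.81 for SERPINB6 and 0.77 for SERPINB8. SERPINB2 differed by -1.0 at 24 h, but it passed the CT1258 filter only through the exposed samples. Its difference is therefore a description, with no test. With the CT1258 controls thinned once at random to the depth of the exposed samples, it was -0.66. Between LNCaP and CT1258 at 12 h the differences were -1.63 for SERPINB5 and 1.10 for SERPINB6, which was 0.51 without that same LNCaP sample. In every pair with CT1258, species, annotation, aligner and the depth of the controls differ together with the line and cannot be told apart.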

How the results depend on the processing

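Of 1523 values of single genes under the alternatives, 1468 kept their direction and their side of the threshold, 15 no longer passed, 24 came to pass, 12 changed sign and 4 (SPINK5 in PC-3 without a control) moved by more than the spread. Of 328 counts of members that passed, 306 stayed within 1.5 times. The others, with their causes not tested, were as follows. At an adjusted p of 0.05, 5 members passed in PC-3 at 24 h (6873 of 13777 genes in all), 3 between 24 h and 12 h (1390 of 13777), and 5 in CT1258 at 24 h (6142 of 9886). Counts from here on without a total over all genes show how settings moved them and are not results about the members. With an adjusted p of 0.001 and a log2 fold change of at least 1 as well, 2 passed in CT1258 at 12 h and 1 at 24 h. At an adjusted p of 0.001, 0 differed between PC-3 and LNCaP or between LNCaP and CT1258 at 12 h. With DESeq2, 2 differed between PC-3 and LNCaP at 12 h and 1 at 24 h. Leaving out each sample in turn, the count was 1 to 4 in CT1258 at 24 h, 1 to 2 between PC-3 and LNCaP at 12 h and 0 to 2 at 24 h, and 1 to 2 between LNCaP and CT1258 at 12 h and 0 to 1 at 24 h. The same leave-outs gave values on both sides of 0 for PI3 in PC-3 at 24 h (-0.14 to 0.27) and SLPI from 12 h to 24 h (-0.14 to 0.18). In LNCaP they did so for SERPINB5 at 12 h (-0.77 to 0.018) and 24 h (-0.30 to 0.48) and SERPINB6 at 12 h (-0.30 to 0.54) and from 12 h to 24 h (-0.77 to 0.078). Between PC-3 and LNCaP they did so for SERPINB6 at 12 h (-0.67 to 0.15) and SERPINB5 at 24 h (-0.033 to 0.75), between PC-3 and CT1258 for SERPINB2 at 12 h (-0.0020 to 0.30), and between LNCaP and CT1258 for SERPINB8 at 12 h (-0.0013 to 0.51) and 24 h (-0.44 to 0.071). With the replicate number as a block, 3 members passed in PC-3 at 24 h (1554 of 13777 genes in all) and 0 in each LNCaP comparison. In CT1258 4, 2 and 0 passed at 12 h, at 24 h and between them. SERPINB5 in LNCaP at 24 h was 0.066 with the block. No paired analysis was possible because the numbers of 2 PC-3 12 h columns are not clear and lines share no replicates, for comparisons with PC-3 at 12 h and between lines. Depth limits SERPINB9 in PC-3, SPINK5 in LNCaP and CT1258, and genes at 0.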
